A study of Mus musculus with 6 samples.

Results

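Granulocyte-monocyte progenitors (GMPs) are bone marrow cells that give rise to neutrophils and monocytes, and they were followed here among captured cells of the mouse liver. They were taken as cell barcodes with at least 300 genes, under 25% mitochondrial UMIs, at least 1 UMI of at least 2 of the 5 genes Mpo, Elane, Prtn3, Ctsg and Ms4a3, and 0 UMIs of Cd3e, Cd79a, Clec4f and Stab2, which mark T cells, B cells, Kupffer cells and sinusoidal endothelium. A UMI is a unique molecular identifier, a tag that counts each captured transcript once. By this rule 322 of 66935 kept barcodes were chosen, out of 71908 deposited. They are called GMP-marker cells below, because the marker counts that chose them ranged from 2 UMIs to 904.

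The study set 3 groups of liver side by side, with 2 libraries each: control livers (genotype given as ctrl), pre-metastatic livers, labelled as the pre-metastatic niche, and macro-metastatic livers. The last pair of groups came from orthotopic mouse models of colorectal cancer. All 6 libraries carry the cell line label CT26-GFP, a mouse colon carcinoma line with green fluorescent protein, also the controls. No age, sex, strain or treatment was given, and nothing states that the libraries of a group are separate animals, and p-values therefore speak only of the variation among these libraries, part of which may be technical. Whole livers had been minced, digested with collagenase II, freed of erythrocytes and of dead cells, and captured on the BD Rhapsody system, so shares describe captured cells.

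In bone marrow, GMPs and the promyelocytes that follow them fill primary granules with the peroxidase myeloperoxidase (Mpo) and with serine proteases, among them neutrophil elastase (Elane), proteinase 3 (Prtn3) and cathepsin G (Ctsg). These transcripts are shut off as neutrophils mature, while secondary granule genes such as Ltf, Camp and Ngp come on in myelocytes. Ms4a3 encodes a membrane protein of the same stage. The transcription factors PU.1, C/EBP alpha and RUNX1 are known to drive this programme, and GMPs can leave the marrow and make myeloid cells in other tissues.

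The 5 genes that defined the cells lie on 4 chromosomes in the mm10 build: Mpo at chr11:87793581-87804413 (plus strand), Prtn3 at chr10:79874476-79883174 (plus), Elane at chr10:79886247-79888215 (plus), Ctsg at chr14:56099881-56102574 (minus) and Ms4a3 at chr19:11629496-11640851 (minus), all protein-coding in GENCODE. Prtn3 and Elane are neighbours, 3072 bases apart. The sequence before the RefSeq start is shown for the 4 genes that held a motif match. They are shown because the rule chose the cells by these genes, which also fixed their joint detection. RefSeq promoters (build GRCm38.p6) matched all 5 genes. The bases shown lie within the 250 before the start and outside any GENCODE exon, 5′ to 3′ on the gene's strand. Capitals mark the PU.1 core GAGGAAGT or the RUNX motif TGTGGT, on either strand.
Mpo, chr11:87793534-87793580, plus strand: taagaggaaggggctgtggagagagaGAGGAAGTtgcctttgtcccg
Prtn3, chr10:79879417-79879613, plus strand: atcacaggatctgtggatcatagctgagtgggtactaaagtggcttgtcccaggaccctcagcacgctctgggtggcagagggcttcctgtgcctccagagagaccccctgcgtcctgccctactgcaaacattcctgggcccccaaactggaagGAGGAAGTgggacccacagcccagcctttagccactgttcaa
Elane, chr10:79886062-79886246, plus strand: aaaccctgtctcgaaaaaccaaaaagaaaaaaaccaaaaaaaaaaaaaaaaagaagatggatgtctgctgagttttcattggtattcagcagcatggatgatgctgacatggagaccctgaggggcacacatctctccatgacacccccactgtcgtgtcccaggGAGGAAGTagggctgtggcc
Ctsg, chr14:56102575-56102824, minus strand: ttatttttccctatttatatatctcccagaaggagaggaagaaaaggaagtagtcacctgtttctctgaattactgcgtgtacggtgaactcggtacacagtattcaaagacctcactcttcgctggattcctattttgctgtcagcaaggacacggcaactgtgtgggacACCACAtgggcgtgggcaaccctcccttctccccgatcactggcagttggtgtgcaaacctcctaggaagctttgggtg

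Over all 250 bases the PU.1 core was found before 3 of the 5 genes (Mpo, Prtn3 and Elane), against 2.44% of 32851 RefSeq promoters. It began 224, 95 and 85 bases before the RefSeq start in Mpo, Prtn3 and Elane. The RefSeq windows of these genes ended at chr11:87793783, chr10:79879666 and chr10:79886311. Each end lies inside the GENCODE gene span given above, so the distances do not count from the GENCODE gene ends. The RUNX motif was found before 1 of the 5 (Ctsg), against 14.0% of promoters. A C/EBP motif, TTGCNNAA, was found before none of the 5, against 9.56% of promoters. These matches describe letters in a window and name no binding site.

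GMP-marker cells were nearly absent from control livers and present in both tumour-bearing stages. Control libraries held 2 and 1 of them, pre-metastatic libraries 77 and 18, and macro-metastatic libraries 184 and 40. As a share of kept barcodes this was 0.0211% and 0.00964% in the controls, 0.746% and 0.169% in the pre-metastatic pair, and 1.53% and 0.285% in macro-metastatic libraries. The Wilson 95% intervals reached up to 0.0768% in control 1 and down to 0.107% in pre-metastatic 2, the highest control and the lowest tumour-bearing library by share. All 4 tumour-bearing libraries thus lay above both controls, while the macro-metastatic and pre-metastatic ranges overlapped. Intervals cover counting error only.

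Group means were 0.0154% ± 0.00808 in the controls, 0.458% ± 0.408 in pre-metastatic and 0.906% ± 0.879 in macro-metastatic livers (each ± SD over n = 2 libraries). In edgeR's quasi-likelihood test on barcodes per class, the share rose in macro-metastatic against control livers, with a log2 fold change of 5.80 (SE 1.37, adjusted p = 0.00823 over 21 classes). In that comparison 42.9% of the classes were called, a call being an adjusted p under 0.05. The share also rose in pre-metastatic against control livers, with a log2 fold change of 4.81 and an SE of 1.34 (adjusted p = 0.0367), where 19% of the classes were called. Macro-metastatic against pre-metastatic livers gave 0.98 (SE 1.02, adjusted p = 0.545), a difference smaller than the spread between libraries, with 4.76% of the classes called. Pooled over libraries, the share was 56.8 times that of control in macro-metastatic livers (95% counting interval 19.2 to 278) and 30.0 times in pre-metastatic livers (9.96 to 148).

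With only 3 such cells in the controls, neither call against control held when either control library was left out. Without control replicate 1 the adjusted p was 0.0826 for macro-metastatic and 0.188 for pre-metastatic livers, and without control replicate 2 it was 0.135 and 0.324. Without pre-metastatic replicate 1 the pre-metastatic call was also lost (log2 fold change 3.38, adjusted p = 0.159), and without macro-metastatic replicate 1 the macro-metastatic difference from pre-metastatic livers turned to −0.68 (adjusted p = 0.699).

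**Figure D1:**
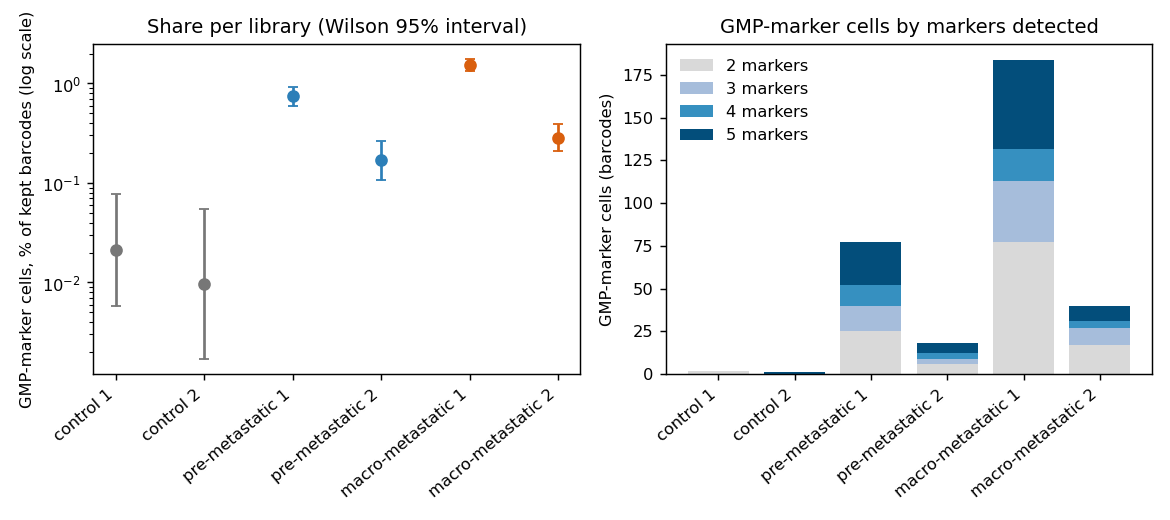
Left, GMP-marker cells as a percentage of kept barcodes in each library on a log axis, with Wilson 95% intervals. Right, their number in each library split by how many of the 5 marker genes had a UMI. The 4 tumour-bearing libraries lie between 0.169% and 1.53%, above both controls at 0.0211% or less, and replicate 1 holds more of these cells than replicate 2 in both tumour-bearing groups.

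Cells with most of the marker genes showed the same order. All 5 or 4 of the 5 markers were detected in 0 and 1 cells of the control libraries, 37 and 9 of the pre-metastatic libraries and 71 and 13 of the macro-metastatic libraries. After each barcode was thinned to 1000 UMIs, and shallower barcodes left out, the shares were 0% and 0.0106% in the controls, 0.400% and 0.161% in the pre-metastatic pair, and 1.02% and 0.238% in macro-metastatic libraries. Of the GMP-marker cells, 0 and 0 in the controls, 18 and 4 in the pre-metastatic pair, and 51 and 8 in macro-metastatic libraries were too shallow for this. The macro-metastatic and pre-metastatic shares still differed from control after thinning (adjusted p = 0.0146 and 0.0372). Median UMIs per GMP-marker cell were 10368.5 and 10265 in the controls, 9854 and 4492.5 in the pre-metastatic pair, and 3983.5 and 7808 in macro-metastatic libraries. Over all kept barcodes the medians ran from 2177 in control 1 to 4605 in macro-metastatic 1.

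Free RNA was measured in B cells, which do not use the marker genes. None of 3530 B cells had 2 of the 5 markers, which allows a share of up to 0.0850%, at median depths of 1364.5 to 2326.5 UMIs. GMP-marker cells were deeper, with library medians of 3983.5 to 10368.5 UMIs, so this limit holds for the depth of B cells only. In single libraries the limit was 0.466% and 0.355% in the controls, 0.480% and 0.479% in the pre-metastatic pair, and 1.11% and 0.577% in macro-metastatic libraries. It lay below the GMP-marker share in replicate 1 of both tumour-bearing groups and above it in the other 4 libraries. Single markers were seen in B cells at low shares: Mpo was in 0% and 0% of B cells in the controls, 0.320% and 0.319% in the pre-metastatic pair, and 2.22% and 0.192% in macro-metastatic libraries. Kupffer cells, by their own markers, held at least 2 of the 5 markers in 36 of 2207 cells (1.63%) of macro-metastatic 1, and in at most 0.242% of cells of each other library. Those barcodes carried a UMI of at least 1 of the absent genes, so none of them was a GMP-marker cell. Endothelial cells of macro-metastatic 1 held at least 2 of the 5 markers in 18 of 1894 cells (0.950%), of which 1 was a GMP-marker cell. Median depths in that library were 15298 UMIs in Kupffer cells and 6903.5 in endothelial cells.

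The 4 genes required to be absent removed 341 barcodes that met the marker part of the rule, and the number differed between the stages. It was 1 and 0 in the controls, 18 and 9 in the pre-metastatic pair, and 269 and 44 in macro-metastatic libraries. Of these, 256 had Clec4f, 171 Stab2, 32 Cd3e and 8 Cd79a, and 119 held 4 or 5 markers. The removed barcodes were deeper than the GMP-marker cells, with median UMIs of 13270 and 14144.5 against 3983.5 and 7808 in macro-metastatic libraries. In the pre-metastatic pair these medians were 11247 and 10935 against 9854 and 4492.5. The gene comparisons below thus used the shallower part of the marker-positive barcodes. Whether depth had a part in the removals was not tested. Clec4f, a Kupffer cell lectin, was found in 1.40% and 1.66% of B cells in the controls, 2.40% and 3.67% in the pre-metastatic pair, and 17.0% and 20.2% in macro-metastatic libraries. Whether UMIs of this kind had a part in the removals was not tested. Without the requirement the marker part held 3 and 1 barcodes in the controls, 95 and 27 in the pre-metastatic pair, and 453 and 84 in macro-metastatic libraries. On that count, an alternative chosen after seeing the data, macro-metastatic against pre-metastatic livers gave a log2 fold change of 1.89 (adjusted p = 0.217).

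Other cells of the granulocyte and monocyte lineages also rose. Immature neutrophils, named from Ltf, Camp, Ngp and 5 further markers, numbered 2 and 2 in the controls, 58 and 12 in the pre-metastatic pair, and 319 and 62 in macro-metastatic libraries. Their share rose in macro-metastatic against control livers (log2 fold change 6.18, SE 1.36, adjusted p = 0.00823) and gave 3.99 in pre-metastatic against control livers, which did not pass (adjusted p = 0.0534). Mature neutrophils rose in both comparisons, by 2.66 on the log2 scale in pre-metastatic livers and by more in macro-metastatic livers (adjusted p = 0.00578 and 0.000479), as did monocytes and macrophages, by 2.72 and 3.56 (adjusted p = 0.0233 and 0.00569). Erythroid cells, another lineage of the marrow, gave 2.04 in pre-metastatic and 1.34 in macro-metastatic livers and did not pass (adjusted p = 0.203 and 0.333), nor did megakaryocytes at 1.11 and 1.03 (adjusted p = 0.639 and 0.518).

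Set against mature neutrophils of the same library, GMP-marker cells numbered 18.0 and 4.48 per 1000 in the controls, 59.1 and 20.1 in the pre-metastatic pair, and 55.7 and 11.1 in macro-metastatic libraries. The macro-metastatic range overlapped with both other groups, and both pre-metastatic libraries lay above both controls, at 20.1 against 18.0 for the nearest pair. In both tumour-bearing groups the library of replicate 1 held the higher ratio. Differences between the class shares themselves were not tested.

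The 5 marker genes chose the cells, so their values are a description without a test. Mpo was detected in 86.3% of GMP-marker cells, Prtn3 in 77.6%, Ctsg in 63.7%, Elane in 54.7% and Ms4a3 in 47.8%. All 5 were detected in 93 cells, 4 in 38, 3 in 64 and exactly 2, just inside the rule, in 127. Another 771 barcodes had 1 marker, just outside it. The median sum of marker UMIs was 1 in barcodes with 1 marker, 3 with 2 markers, 7 with 3, 14.5 with 4 and 60 with all 5, where the highest was 904. Per 10000 UMIs of the cell the medians were 2.42, 9.01, 22.9, 61.9 and 118 in the same order. Of 15126 marker UMIs, 92.0% were in the 131 cells with 4 or 5 markers and 3.05% in the 127 cells with 2. Among cells with 2 markers the pairs met most often were Mpo with Prtn3 (43 cells), Mpo with Ctsg (30) and Elane with Prtn3 (15).

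In the summed cells of a library, Mpo stood at 2604 and 4380 CPM (counts scaled to a common total of UMIs over those cells) in macro-metastatic libraries, against 2390 and 2155 CPM in pre-metastatic libraries. Elane stood at 706 and 896 CPM in macro-metastatic libraries, against 866 and 263 CPM in pre-metastatic libraries, so these groups overlapped. Prtn3 stood at 1059 and 1096 CPM in macro-metastatic libraries, against 480 and 280 CPM in pre-metastatic libraries. Ctsg (846 and 1328 CPM, against 936 and 666 CPM) and Ms4a3 (375 and 422 CPM in macro-metastatic, against 428 and 201 CPM in pre-metastatic libraries) overlapped between the groups. The only such cell of control 2 held all 5 markers, with 84 UMIs of Mpo and 31 of Elane among 10265.

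Some progenitor genes that the rule did not use stood at higher summed levels in GMP-marker cells than in related classes. Barcodes chosen as GMP-marker cells had been left out of those classes, whatever class they scored as. Ranked by the mean log2 ratio over 4 libraries to immature neutrophils, monocytes with macrophages and mature neutrophils, whichever was lowest, Cd34 came first. Cd34, a surface sialomucin of stem and progenitor cells, stood at 125, 257, 224 and 342 CPM in macro-metastatic 1 and 2 and pre-metastatic 1 and 2. A UMI of Cd34 was found in 13.6%, 35.0%, 35.1% and 33.3% of GMP-marker cells in that order, so most of them showed none. The mean level was 237 CPM, against 5.30 CPM in immature neutrophils, 19.7 CPM in monocytes with macrophages and 3.59 CPM in mature neutrophils. Sox4, a transcription factor of early progenitors, averaged 104 CPM against 0.414, 5.09 and 1.65 CPM in those classes. Cdk6, a cell cycle kinase of stem and progenitor cells, averaged 638 CPM against 129, 66.2 and 29.6 CPM, and lay above those classes in each of the 4 libraries. The other genes among the first 16 were, in order, Muc13, Gria3, Angpt1, Adgrg1, Shmt2, Dkc1, Psat1, Mcm5, Rrm1, Msi2, Ppat, Ube2c and Ctps. This order was read from these cells and carries no test.

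Cells with 4 or 5 markers and cells with 2 differed in other genes of the primary granule stage, here without a test. Prss57, a serine protease of primary granules, stood at 188 and 125 CPM in macro-metastatic and 102 and 12.4 CPM in pre-metastatic libraries in cells with 4 or 5 markers. In cells with 2 markers it stood between 0 and 15.9 CPM, from 5 UMIs in 127 cells, and was lower in each library. In pre-metastatic 2 the sums held only 80346 UMIs from 9 cells with 4 or 5 markers and 17380 UMIs from 6 cells with 2. The values of that library here, among them 12.4 and 0 CPM of Prss57, are therefore uncertain. Gfi1, a repressor needed for neutrophil fate, averaged 35.3 CPM with 4 or 5 markers and 1.00 CPM with 2 (2 UMIs in 1 cell). Nkg7, a granule membrane protein gene, averaged 299 and 38.0 CPM. Lyz2, the lysozyme gene of monocytes, macrophages and neutrophils, averaged 2386 CPM with 4 or 5 markers and 6865 CPM with 2, but in pre-metastatic 2 it was higher in the cells with 4 or 5 markers (3709 and 173 CPM). Barcodes with 1 marker, outside the rule, averaged 7117 CPM of Lyz2, 2.24 CPM of Prss57 and 67.4 CPM of Cd34. Cd34 averaged 153 CPM with 4 or 5 markers and 296 CPM with 2, again with 1 library in the other order (macro-metastatic 1, 146 and 48.0 CPM).

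By class score the 322 cells were mixed. When every kept barcode was scored on the markers of 19 liver and blood classes, 122 of the 322 fell in no class, 110 scored as monocytes or macrophages, 56 as immature neutrophils and 23 as mature neutrophils. The other 11 scored as 5 further classes. None of the 19 classes was for granulocyte-monocyte progenitors, so such a cell could only score as another class or in none. The scores therefore cannot decide whether a cell was a progenitor. Monocyte genes were present in both sets: Ly6c2, a surface protein of inflammatory monocytes, averaged 1562 CPM with 4 or 5 markers and 933 CPM with 2, and F13a1, the factor XIII A chain, 842 and 1024 CPM. Irf8, the factor that turns progenitors towards monocytes and dendritic cells, averaged 126 and 80.9 CPM. The 8 T cell markers summed to 5.82 to 14.5 CPM, the 8 B cell markers to 6.23 to 16.0 CPM and the 8 erythroid markers to 16.4 to 61.3 CPM over the 4 libraries, with Klf1 and Rhag among those at 0. Cd3e and Cd79a were at 0 by the rule. The Kupffer and hepatocyte sums are given with the stages below.

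**Figure D2:**
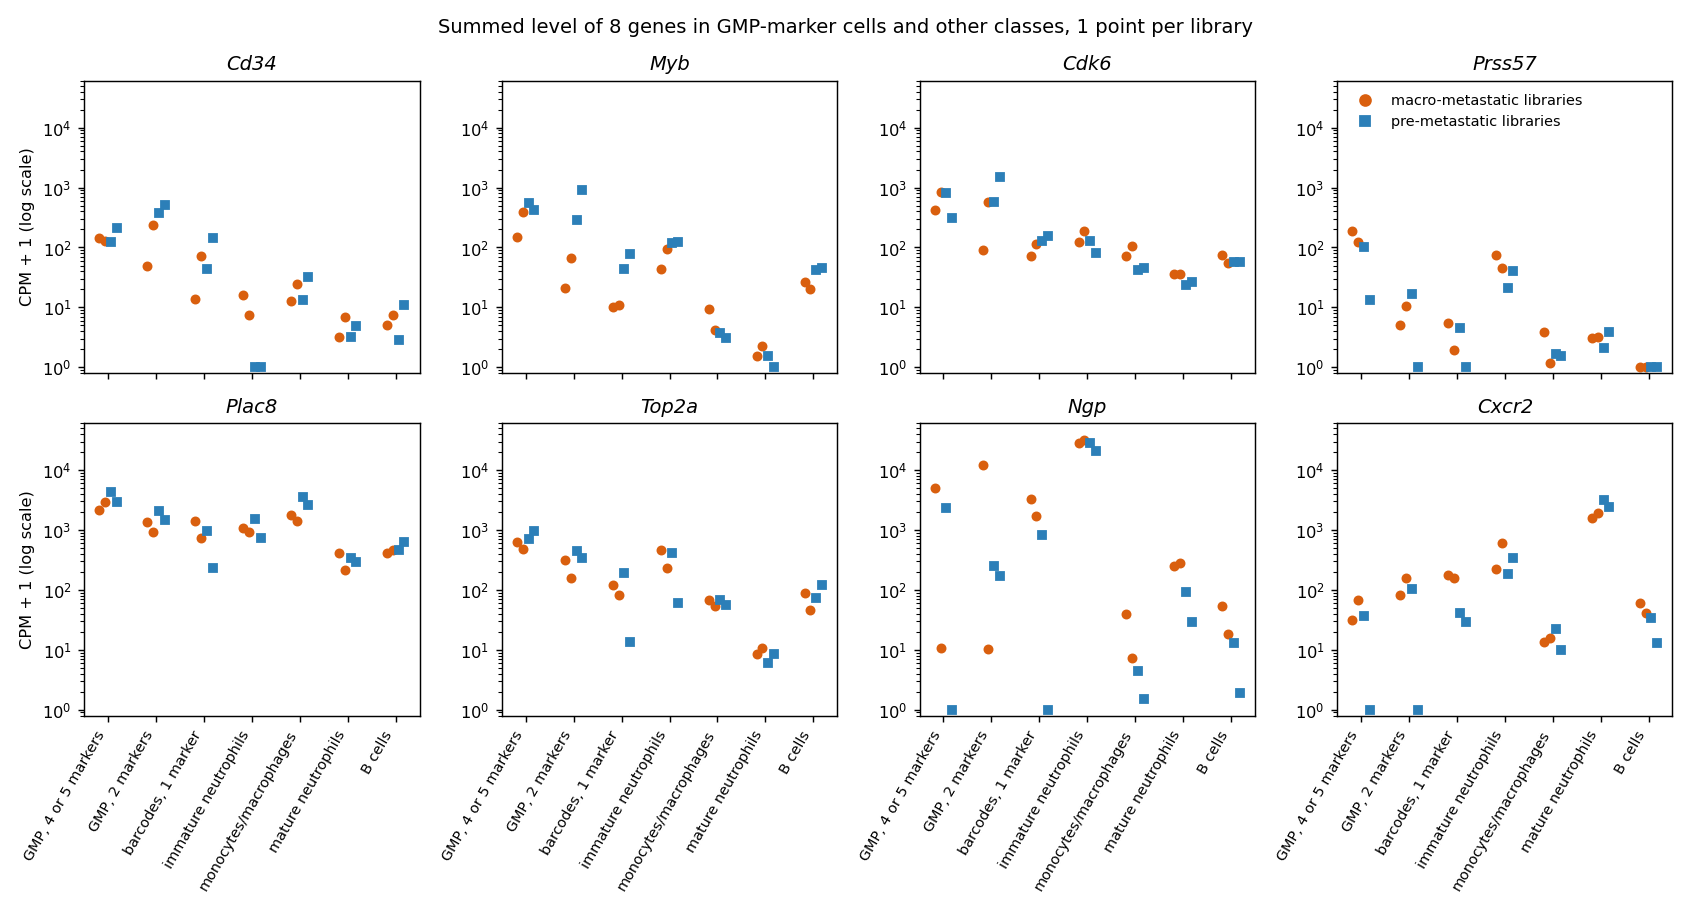
Summed level of 8 genes (CPM + 1, log axis) in 7 sets of barcodes, 1 point for each macro-metastatic (circles) and pre-metastatic (squares) library. Cd34, Myb and Cdk6 are higher in cells with 4 or 5 markers than in the neutrophil and monocyte classes, Ngp is highest in immature neutrophils and Cxcr2 in mature neutrophils. Prss57 is lower in cells with 2 markers, where it had 5 UMIs in all, than in cells with 4 or 5 in each library.

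The secondary granule genes Ngp and Camp differed by replicate number within both groups. Ngp, which encodes neutrophilic granule protein, stood at 7039 and 32.9 CPM in macro-metastatic and 2556 and 78.8 CPM in pre-metastatic libraries. Camp, the cathelicidin gene, stood at 2091 and 0 CPM in macro-metastatic and 528 and 0 CPM in pre-metastatic libraries. Replicate 1 was high and replicate 2 low in both groups, and in the cells with 4 or 5 markers Ngp likewise gave 4994 and 9.59 CPM in macro-metastatic and 2354 and 0 CPM in pre-metastatic libraries. The 8 immature neutrophil markers summed to 12675 and 559 CPM in macro-metastatic and 4612 and 219 CPM in pre-metastatic libraries. By class score, 46 and 1 of the macro-metastatic GMP-marker cells and 9 and 0 of the pre-metastatic ones were immature neutrophils. In B cells Ngp stood at 52.1 and 17.6 CPM in macro-metastatic and 11.8 and 0.922 CPM in pre-metastatic libraries. The part of free RNA and of neighbouring cells in these levels was not tested.

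Gene levels were compared between the tumour-bearing stages only, since a library needed at least 10 GMP-marker cells and the controls held 2 and 1. UMIs summed over these cells came to 1445048 and 365083 in macro-metastatic libraries, and to 686924 and 114162 in pre-metastatic libraries. Of 6750 genes tested, edgeR's quasi-likelihood test called 299 (4.43%), 287 higher and 12 lower in macro-metastatic livers, with a median log2 fold change of −0.01 over all genes tested. An unadjusted p under 0.05 was reached by 887 genes (13.1%) in the higher and 298 (4.41%) in the lower direction. The libraries of the groups did not overlap for 26.1% of genes in the higher and 22.8% in the lower direction. The count was 119 without pre-metastatic replicate 1, 688 without macro-metastatic replicate 2 and 196 with DESeq2. Below, levels are CPM on TMM-scaled library sizes, so they differ slightly from the unscaled values above, and adjusted p-values are from edgeR.

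Among genes called without overlap at a mean log2 CPM of 6 or more, with ribosomal protein and the other gene classes of the naming rule left out, the 10 largest rises were those of Cxcl1, Saa3, Crip1, Mt2, Tgm2, Cxcl2, Il1a, Ctsa, Mt1 and C1qc. Cxcl1, a chemokine that draws neutrophils, stood at 1007 and 228 CPM in macro-metastatic libraries, against 8.59 and 0 CPM in pre-metastatic libraries (log2 fold change 6.42, SE 0.88, adjusted p = 0.00399). Its neighbour on chromosome 5, Cxcl2, with the same role, stood at 5721 and 2286 CPM, against 246 and 25.3 CPM (4.66, SE 0.71, adjusted p = 0.00737). Both macro-metastatic libraries lay above both pre-metastatic ones for each. Saa3, an acute-phase protein, rose by 5.83 (SE 1.07, adjusted p = 0.0144), with 79.8 and 386 CPM in macro-metastatic, against 4.30 and 0 CPM in pre-metastatic libraries. The metallothioneins Mt1 and Mt2, which bind zinc and copper, rose by 4.28 and 5.32 (adjusted p = 0.00107 and 0.00869), and Il1a, which encodes the cytokine interleukin 1 alpha, by 4.44 (adjusted p = 0.0155). The call of Il1a was lost without pre-metastatic replicate 1 and with at least 3 markers required (3.23, adjusted p = 0.0733). Crip1, Tgm2, Ctsa (a lysosomal carboxypeptidase) and C1qc (a chain of complement C1q) rose by 5.66, 5.10, 4.39 and 4.24 (adjusted p = 0.000419, 0.0125, 0.000941 and 0.00173). Most of the 10 rises are set against few pre-metastatic UMIs. In replicates 1 and 2 these were 8 and 1 for Crip1, 6 and 1 for Tgm2, and 6 and 1 for Ctsa. They were 5 and 2 for C1qc, 6 and 0 for Cxcl1, 3 and 0 for Saa3, and 11 and 0 for Mt2. Il1a had 2 and 5, Mt1 23 and 2, and Cxcl2 172 and 3, so the sizes of these fold changes are uncertain.

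The 6 genes named for their falls were Aurkb, Cenpf, Cbx5, Numa1, Zfp217 and C1galt1c1. Aurkb, the Aurora B kinase of chromosome segregation, stood at 76.6 and 73.1 CPM in macro-metastatic libraries, against 205 and 219 CPM in pre-metastatic libraries (log2 fold change −1.48, SE 0.28, adjusted p = 0.0154). Cenpf, a centromere protein, stood at 57.4 and 49.7 CPM, against 160 and 127 CPM (−1.44, SE 0.30, adjusted p = 0.0257). Cbx5, the heterochromatin protein 1 alpha gene, and Numa1, a spindle protein, changed by −1.41 and −1.26 (adjusted p = 0.0257 and 0.0484), Zfp217 by −1.53 (0.0332) and C1galt1c1, a chaperone of glycosylation, by −1.22 (0.0427). For each of the 6 the groups did not overlap, and the falls were smaller than the rises above. Without pre-metastatic replicate 1 only Cbx5 of the 6 stayed called. Without macro-metastatic replicate 1 the calls of Zfp217 and Numa1 were lost, and without macro-metastatic replicate 2 that of C1galt1c1. With at least 3 markers required, Cbx5, Numa1 and C1galt1c1 did not pass (adjusted p = 0.0602, 0.0686 and 0.0543), and Cenpf lay on the threshold and did not pass.

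**Figure D3:**
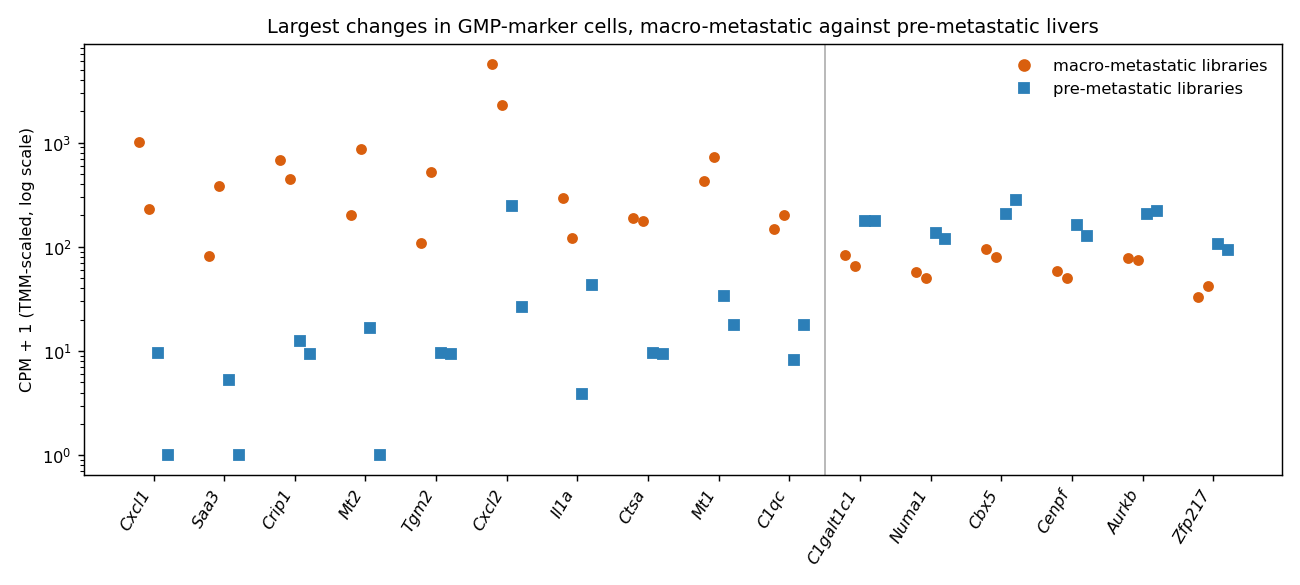
Level in GMP-marker cells (CPM + 1 on TMM-scaled library sizes, log axis) of the 10 genes with the largest rises and the 6 with the largest falls by the same naming rule, 1 point for each macro-metastatic (circles) and pre-metastatic (squares) library. The groups are apart for all 16 genes, by wide gaps among the risers other than Il1a (Cxcl2 at 5721 and 2286 against 246 and 25.3 CPM). The gaps are narrow among the fallers and for Il1a, whose nearest libraries stood at 120 and 42.2 CPM.

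The lists below are to be read against the 4.43% of all genes that were called, and 1 or 2 calls in a list are given as a description only. Medians of some lists in B cells and mature neutrophils are given after the lists. Cell cycle lists had negative medians and few calls. Of 18 S phase genes tested none was called, the median log2 fold change was −0.47, and 11 had lower values in both macro-metastatic than in both pre-metastatic libraries, against 22.8% of all genes tested. Of 17 G2 and M phase genes tested, Aurkb and Cenpf fell and none rose, the median was −0.57 and 10 did not overlap in the lower direction. Summed over the list, G2 and M phase genes stood at 2855 and 2657 CPM in macro-metastatic libraries, against 4685 and 4266 CPM in pre-metastatic libraries. In cells with 4 or 5 markers they stood at 3575 and 3758 CPM, against 4946 and 4754 CPM, and in B cells of the same libraries at 491 and 393 CPM, against 458 and 521 CPM. The most abundant genes of the lists gave smaller differences that did not pass: Top2a, topoisomerase II alpha, −0.59 (adjusted p = 0.315), Mki67, the Ki-67 antigen, −0.46 (0.579) and Mcm5, of the replicative helicase, −0.09 (0.894). A UMI of Mki67 was found in 40.2% and 42.5% of GMP-marker cells of macro-metastatic livers, and in 58.4% and 61.1% of those of pre-metastatic livers, against 1.60% to 3.08% of B cells in the same 4 libraries. Top2a was found in 44.6% and 42.5% of macro-metastatic and 70.1% and 44.4% of pre-metastatic GMP-marker cells. These shares were not matched for depth. Mki67 levels overlapped, at 505 and 199 CPM in macro-metastatic and 493 and 498 CPM in pre-metastatic libraries.

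Of 12 progenitor and stem cell genes tested none was called in either direction, and the median was −0.53. Myb, a transcription factor of progenitors, stood at 109 and 295 CPM in macro-metastatic libraries, against 417 and 523 CPM in pre-metastatic libraries (−1.26, SE 0.42, adjusted p = 0.144). Cdk6 gave −0.12 and Cd93 0.43 (adjusted p = 0.900 and 0.598), with overlapping groups. Primary granule synthesis genes outside the rule (16 tested) and ribosome biogenesis genes (15 tested) had no call either, with medians of 0.41 and 0.30. Among them Srgn, the granule proteoglycan serglycin, gave 0.65 (adjusted p = 0.141), Plac8 −0.49 (0.308) and Npm1, nucleophosmin, −0.27 (0.614).

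In the list of secondary and tertiary granule genes 3 of 13 were called higher and none lower, with a median of 1.56. Hp, which encodes haptoglobin, stood at 972 and 605 CPM in macro-metastatic libraries, against 51.6 and 16.9 CPM in pre-metastatic libraries (4.21, SE 0.42, adjusted p = 0.00132). Arg2, which the list holds although it encodes the mitochondrial arginase, rose by 3.13 (adjusted p = 0.00416) and Itgam, the CD11b integrin chain, by 1.56 (0.0292). The Itgam call was lost without pre-metastatic replicate 2 and with at least 3 markers required (0.52, adjusted p = 0.737). Ngp and Camp, whose libraries split by replicate number, gave 1.61 and 2.03 (adjusted p = 0.644 and 0.552). Among myeloid transcription factors 1 of 12 rose, Stat3, the factor downstream of G-CSF and interleukin 6, by 1.71 (adjusted p = 0.0120). Cebpb, Egr1 and Nr4a1 gave 0.11, −0.11 and 0.29 and did not pass.

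Monocyte commitment genes rose in 2 of 10, Fn1 (fibronectin) by 2.49 and Ctss (cathepsin S) by 1.56, both at adjusted p = 0.0111. Ly6c2, F13a1 and Ms4a6c gave 0.38, 0.42 and 0.04 and did not pass. In cells with at least 3 markers neither Fn1 (1.51, adjusted p = 0.0793) nor Ctss (0.40, adjusted p = 0.710) was called. Of 12 cytokine and chemokine receptors Csf2ra, the GM-CSF receptor alpha chain, rose by 1.25 (adjusted p = 0.0318). That call was lost without macro-metastatic replicate 1, without either pre-metastatic library and with at least 3 markers required (0.88). Its partner Csf2rb gave 0.91 (0.131), and Cxcr4, the receptor that holds myeloid cells in the marrow, −0.88 (0.0993).

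NF-kB and inflammatory genes rose in 7 of 16 and fell in none, with a median of 1.30. Besides Cxcl2 and Il1a they included Clec4e, a pattern receptor, by 2.33 (adjusted p = 0.00431), and Nfkbia, the NF-kB inhibitor alpha, by 1.71 (0.0111). The list summed to 13330 and 7798 CPM in macro-metastatic libraries, against 2815 and 4844 CPM in pre-metastatic libraries. In cells with 4 or 5 markers the sums overlapped, at 7056 and 5335 CPM against 1709 and 5389 CPM. Immediate-early and heat-shock genes rose in 4 of 19, Fosb by 2.78, Ier3 by 2.86, Atf3 by 1.46 and Jun by 1.14 (adjusted p = 0.00191, 0.00656, 0.0224 and 0.0411), while Fos gave −0.99 (0.309). Among MHC class II genes, Cd74, the invariant chain, and H2-DMa rose by 3.09 and 2.81 (2 of 7 genes, adjusted p = 0.00416 and 0.0170).

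Glycolysis and hypoxia genes rose in 5 of 14, with a median of 0.77. Gapdh, which encodes a glycolytic dehydrogenase, stood at 2227 and 1994 CPM in macro-metastatic libraries, against 182 and 287 CPM in pre-metastatic libraries (3.23, SE 0.29, adjusted p = 0.000825). Gpi1, Eno1 and Hilpda, a hypoxia-induced lipid droplet gene, rose by 2.73, 2.68 and 3.85 (adjusted p = 0.00166, 0.00399 and 0.00244), while the glycolytic enzymes Pgk1 and Pgam1 gave −0.22 and −0.37 (0.662 and 0.430). Gapdh has many near-identical pseudogene copies, so its counts are uncertain. Oxidative phosphorylation genes rose in 3 of 15 (Ndufv1, Uqcrq and Cox4i1), endoplasmic reticulum folding genes in 2 of 16 (P4hb and Ssr2), adhesion genes in 2 of 15 (Itgam and Icam1) and interferon-stimulated genes in 1 of 6 (Ifitm3, by 1.37, adjusted p = 0.0292). The Ifitm3 call was lost without either pre-metastatic library and with at least 3 markers required (0.92, adjusted p = 0.248). None of these lists had a gene called lower. Their medians were 0.27 for oxidative phosphorylation, 0.46 for adhesion, 0.44 for interferon-stimulated and −0.19 for folding genes, of which 4 were lower and 3 higher without overlap.

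**Figure D4:**
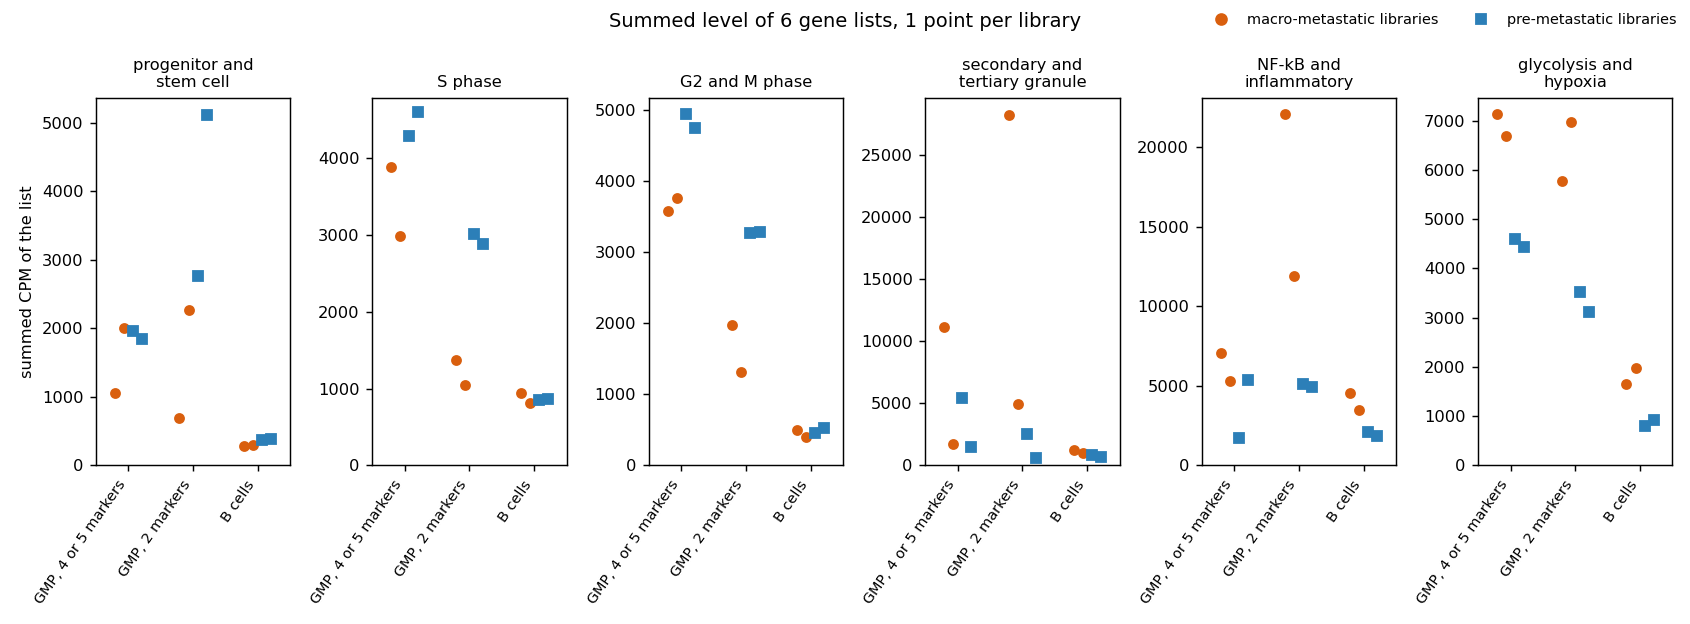
Summed CPM of 6 gene lists in GMP-marker cells with 4 or 5 markers, in those with 2 markers and in B cells, 1 point for each macro-metastatic (circles) and pre-metastatic (squares) library. S phase and G2 and M phase lists lie lower in macro-metastatic cells of both marker classes, the glycolysis list lies higher in all 3 sets, and the secondary granule list is spread within each group.

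Many of these genes also differed between the stages in cells of other lineages, so the change in GMP-marker cells was set against that in B cells and in mature neutrophils of the same libraries. In B cells 1397 of 8510 genes (16.4%) were called between macro-metastatic and pre-metastatic livers, and in mature neutrophils 1223 of 9896 (12.4%). Gapdh gave 3.23 in GMP-marker cells, 2.99 in B cells and 3.59 in mature neutrophils on the log2 scale, and Crip1 gave 5.66, 3.56 and 4.89. List medians, each over the genes with a value in that class, were 1.30, 1.58 and 0.45 in that order for NF-kB and inflammatory genes. They were 0.77, 1.17 and 1.22 for glycolysis and hypoxia genes, and 1.56, 1.66 and 1.11 for secondary and tertiary granule genes. MHC class II genes gave 1.88, 0.50 and 1.32, and G2 and M phase genes −0.57, −0.50 and 0.92. The G2 and M phase medians rest on 17, 14 and 9 genes in that order, without Aurkb and Cenpf in mature neutrophils, so they do not compare the same genes. The difference in change between GMP-marker cells and B cells was called for 32 of 9287 genes (0.345%), 21 in the higher and 11 in the lower direction. Of 686 genes with an unadjusted p under 0.05 in that test, 384 were higher and 302 lower. The count of 32 was 51 without macro-metastatic replicate 2 and 58 without pre-metastatic replicate 2.

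Among the 21 genes called in the higher direction relative to B cells, the named ones were Saa3 (difference 4.19 on the log2 scale, adjusted p = 0.0210), C1qc (3.15, 0.00217), Hp (2.44, 0.0158), Cd74 (2.20, 0.000450) and Ctss (1.86, 0.000575). In B cells themselves Cd74 gave 0.84 and Ctss −0.32. Egr1, an immediate-early transcription factor, had a lower change (−1.41, adjusted p = 0.0210), with −0.11 in GMP-marker cells and 1.28 in B cells. Cxcl1 and Cxcl2 gave differences of 2.49 and 1.42 that did not pass (adjusted p = 0.228 and 0.161). A UMI of Cxcl2 was present in 85.3% and 82.5% of GMP-marker cells of macro-metastatic livers and 37.7% and 11.1% of those of pre-metastatic livers. In B cells it was present in 63.7% and 48.3%, and in 5.76% and 4.47%, so Cxcl2 in B cells moved with the stage too. Whether it was free RNA or made by those cells was not tested. None of the 6 falling genes passed relative to B cells.

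**Figure D5:**
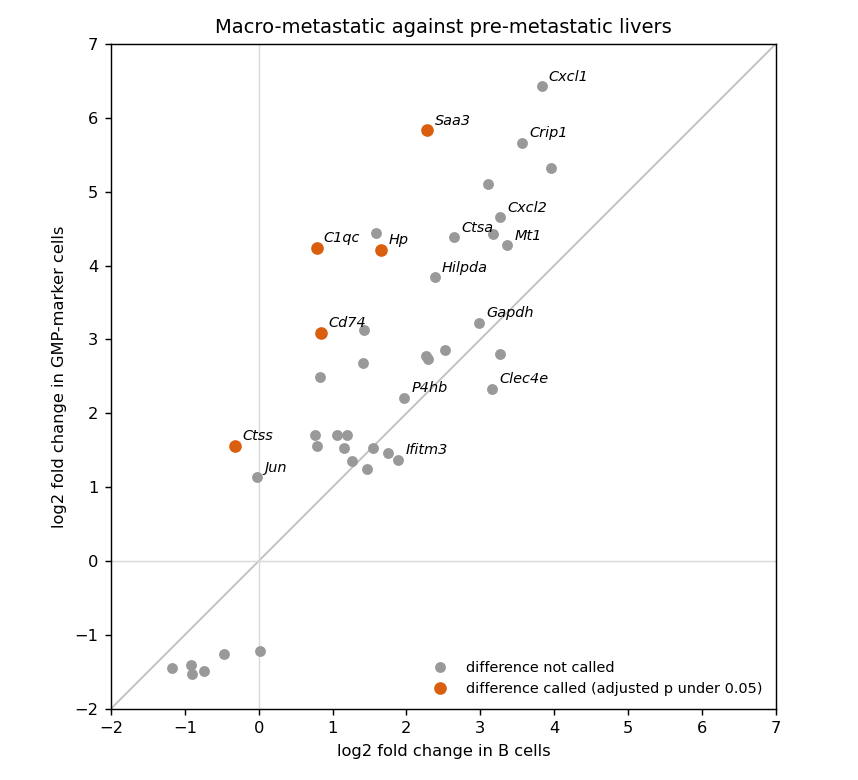
Log2 fold change, macro-metastatic against pre-metastatic livers, in GMP-marker cells (vertical) and in B cells (horizontal) for the 42 named genes called in GMP-marker cells, with the line of equal change. The 5 orange points are genes whose change differed from that in B cells (Saa3, C1qc, Hp, Cd74 and Ctss), and the other 37 grey points did not pass that test.

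Relative to mature neutrophils the change differed for 136 of 9688 genes (1.4%), 95 in the higher and 41 in the lower direction. Cxcl2 rose more in GMP-marker cells (difference 3.33, adjusted p = 0.000170), with a change of 4.66 against 1.35 in mature neutrophils, and Cxcl1 likewise (3.52, adjusted p = 0.000337). Arg2 rose by 3.13 in GMP-marker cells and gave −0.36 in mature neutrophils (difference 3.31, adjusted p = 2.61e-05). Itgam, Lyz2, C1qc, Tgm2, Fosb, Atf3, Zfp36, Clec4e and Egr1 also had higher changes in GMP-marker cells, by 1.37 to 2.72, and Ube2c a lower one (−2.63, adjusted p = 0.0209). The count of 136 was 225 without macro-metastatic replicate 2, 13 without pre-metastatic replicate 1 and 35 without pre-metastatic replicate 2.

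Markers of neighbouring cells moved with the stage in the same sums. The 8 Kupffer markers summed to 248 and 271 CPM in macro-metastatic, against 37.8 and 52.6 CPM in pre-metastatic GMP-marker cells, with Clec4f at 0 by the rule, and to 493 and 443 CPM, against 233 and 355 CPM, in B cells. C1qc, which Kupffer cells use, was found in 38.6% and 35.0% of GMP-marker cells and 24.8% and 19.2% of B cells of macro-metastatic livers, against 6.49% and 11.1% of GMP-marker cells and 4.64% and 5.59% of B cells of pre-metastatic livers. The 8 mature neutrophil markers summed to 19785 and 4005 CPM in macro-metastatic and 8611 and 885 CPM in pre-metastatic GMP-marker cells, so these overlapped. S100a8 was found in 56.7% and 34.0% of B cells of macro-metastatic and 7.20% and 2.72% of B cells of pre-metastatic livers. Hepatocyte markers summed to 30.1 to 249 CPM, highest in pre-metastatic 1. The part of these markers in the gene differences was not tested.

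Of the 42 named genes called in GMP-marker cells, 36 rose and 6 fell. The call held with each of the 4 libraries left out in turn for 22 of them, among them Cxcl1, Cxcl2, Saa3, Crip1, Mt1, Mt2, Tgm2, Ctsa, C1qc, Hp, Arg2, Gapdh, Gpi1, Eno1, Hilpda, P4hb, Fosb, Ier3 and Fn1. With at least 3 of the 5 markers required, 31 of the 42 stayed called, and Tgm2 gave no value. Without pre-metastatic replicate 1 the calls of Stat3, Atf3, Jun, Nfkbia, H2-DMa, Icam1, Ctss, Ndufv1, Uqcrq, Cox4i1 and Ssr2 were also lost. Those of Atf3, Jun and Cox4i1 were lost without pre-metastatic replicate 2 as well, and that of H2-DMa without macro-metastatic replicate 1.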

How the data were processed

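UMI counts per gene and barcode from 6 mouse liver libraries were used as the authors deposited them, and no deposited barcode lay under 500 UMIs. Per the submitters' processing notes, CASAVA 1.8, UMI-tools and the mm10 genome build were used. The aligner is not given in the sources used here, nor is the annotation.

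Deposited UMI totals ran from 41914149 to 90819751 per library. Other classes of barcodes were named from the best of 19 lists of 8 markers, with at least 3 detected. UMIs were summed per library and class. edgeR 4.0.16 (R 4.3.3) quasi-likelihood tests with Benjamini-Hochberg adjustment compared class shares over 6 libraries and genes over the 4 libraries with at least 10 GMP-marker cells (TMM scaling), and interaction fits with a library block set the change against that in B cells and mature neutrophils. Recovery was tested on simulated data. DESeq2 1.42.0 and the other alternatives are given in the closing section. Sums were described with Python 3.11.15. Doublets were left in. A caller (scanpy 1.11.5, score threshold 0.292) marked 1.70% to 2.46% of barcodes per library and 3 of the 322 GMP-marker cells. Pairs of libraries shared 126 to 222 barcode sequences, none of them a GMP-marker cell in both. Intervals and limits cover counting error only.

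The genes named were up to 10 with the largest rise and fall among genes called without overlap at a mean log2 CPM of at least 6, plus up to 4 called genes and the 3 most abundant of each list. Mitochondrial, ribosomal, haemoglobin, immunoglobulin, predicted and rule genes were left out, and 1 named gene is not reported here. The cells, lists and comparisons were chosen with earlier results of these data known.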

Additional observations from a re-analysis of the deposited data

Results flagged for a closer look

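The following changes, macro-metastatic against pre-metastatic livers, differed between GMP-marker cells and another class of the same libraries by edgeR's interaction test with Benjamini-Hochberg adjustment. Relative to B cells, the log2 change in GMP-marker cells was higher by 4.19 for Saa3, 3.15 for C1qc, 2.44 for Hp, 2.20 for Cd74 and 1.86 for Ctss, and Egr1 gave −1.41. Relative to mature neutrophils it was higher by 3.52 for Cxcl1, 3.33 for Cxcl2, 3.31 for Arg2, 2.72 for Tgm2 and 2.32 for C1qc. It was also higher than in mature neutrophils by 2.08 for Egr1, 1.91 for Itgam, 1.79 for Zfp36, 1.72 for Clec4e, 1.68 for Fosb, 1.40 for Lyz2 and 1.37 for Atf3, and Ube2c gave −2.63.

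Barcodes outside the comparisons also carried the marker genes. Those with at least 2 of the 5 markers that were left out for a UMI of Cd3e, Cd79a, Clec4f or Stab2 numbered 269 and 44 in macro-metastatic libraries, 18 and 9 in pre-metastatic libraries, and 1 and 0 in control libraries.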

How the results depend on the processing

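The share of GMP-marker cells in macro-metastatic against control livers kept its call under every alternative that kept all 6 libraries, and leaving out 1 library gave 4.13 to 6.55. In pre-metastatic against control livers the call was lost with TMM scaling over the classes (4.39, adjusted p = 0.115) and with under 10% mitochondrial UMIs (4.38, adjusted p = 0.0595), and leaving out 1 library gave 3.38 to 5.52. Macro-metastatic against pre-metastatic livers ranged from −0.68 to 2.41 with 1 library left out. A replicate block in the fit gave share differences of 5.66, 4.75 and 0.91 for macro-metastatic against control, pre-metastatic against control and macro-metastatic against pre-metastatic livers, with the same calls. Over all genes tested the deviations of same-numbered libraries correlated weakly (r = 0.094), and the numbers were not treated as pairs, although Ngp, Camp and the immature neutrophil markers were higher in replicate 1 of both groups.

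The 299 genes called in GMP-marker cells became 629 with no filter on low counts, 196 with DESeq2, 776 with the replicate block, 442 where the absent genes were not required (an alternative chosen after seeing the data) and 119 to 688 with 1 library left out. Relative to B cells the 32 genes became 38 to 58, and relative to mature neutrophils the 136 became 13 to 225, with 1 library left out. The cause was not tested. No named gene called in GMP-marker cells changed its direction under these alternatives. Among named genes without a call, the log2 change turned sign with at least 3 markers for Cdk6 (0.21), Cebpb (−0.35), Ms4a6c (−0.26), Mcm5 (0.21) and H2-Aa (−0.59), and where the absent genes were not required for Egr1 (0.26), Ly6c2 (−0.043), F13a1 (−0.13), Ms4a6c (−0.17) and H2-Aa (−0.38). With 1 library left out the ranges that crossed 0 were Camp (−9.91 to 12.44), Cd47 (−0.18 to 0.0049), Cd93 (−0.065 to 0.87), Cdk6 (−0.85 to 0.39), Cox5a (−0.38 to 0.29), Cybb (−0.19 to 1.22), Egr1 (−0.98 to 0.42), Fos (−1.58 to 0.046) and H2-Aa (−0.20 to 2.01). They also were Hsp90b1 (−0.57 to 0.064), Ifi204 (−0.087 to 0.88), Mki67 (−1.30 to 0.027), Ms4a6c (−0.25 to 0.27), Ncl (−0.082 to 0.62), Ngp (−5.24 to 5.72), Nr4a1 (−0.12 to 0.69) and Ube2c (−0.84 to 0.49).

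With 2 libraries a group and 114162 UMIs in the shallowest sum, small changes of low genes were not detectable at this depth.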
